A study of Mus musculus with 12 samples.

Results

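The importin alpha family, the adaptors that bind nuclear localization signals, was followed across the pubertal transition in mouse oocytes together with importin beta 1. Its members were the genes listed in the count table as Kpna1, Kpna2, Kpna3, Kpna4, Kpna6 and Kpna7, which encode importin alpha proteins, and Kpnb1, which encodes importin beta 1. These were 7 of the 24562 genes in the table, and all 7 passed the filter on low counts that left 13943 genes. Kpna2 and Kpna7 were selected on their values in these pools, so their levels are given as a description without a test. The other 5 were chosen by name, though with earlier results of these data known, so their tests are not free of that knowledge.

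RNA-Seq was performed on 12 pools of 18 to 45 oocytes from unstimulated CD-1 mice, an outbred strain, with n = 3 pools in each of 4 cohorts. The cohorts were postnatal day (PND) 13, PND 40, and PND 16 divided by body weight into a small and a large cohort. The labels name no treatment or genetic alteration. PND 16 large and PND 40 oocytes are broadly described by the study as meiotically competent, that is, able to resume meiosis and to reach metaphase II. It rates the quality of PND 16 large oocytes as suboptimal. PND 13 and PND 16 small oocytes are described as lacking this competence. Each pool held oocytes of several follicles, so a lower level can mean less RNA in every oocyte or fewer oocytes that hold it, and the counts cannot tell these apart.

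In classical nuclear import, importin alpha binds the localization signal of a cargo and importin beta 1 carries the pair through the nuclear pore. In the nucleus the small GTPase Ran, in its GTP form, releases the cargo, and the exporter encoded by Cse1l returns importin alpha to the cytoplasm. Importins also hold spindle assembly factors such as TPX2 inactive until Ran-GTP frees them around the chromosomes. Kpna7 is known as an importin alpha of the oocyte and the early embryo, whereas Kpna2 is abundant in dividing cells.

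Sequence bears on how the Kpna2 counts can be read. The libraries were sequenced with reads of 50 bases, and Kpna2 (GRCm38, chr11:106988629-106999541, minus strand) has intronless copies elsewhere in the genome. Of the 2005 stretches of 50 bases in its main transcript of 2054 bases, 1852 (92.4%) also occurred in a transcript of another GENCODE gene. The share was 95.7% in the coding part, 61.2% upstream of it and 97.1% downstream of it. In all, 12 genes shared at least 1 such stretch with Kpna2. The coding sequence of Gm10184, a gene annotated as protein-coding on chr17:89908462-89910449, differed from that of Kpna2 at 2 of 1590 bases. That of Gm10259, a processed pseudogene on chr3:25211016-25212605, differed at 3. None of the 12 had a row in the count table, and they were not analysed here. The start of the coding sequence, which a read of that length could not assign to any of the 3, is shown first, followed by the stretch of the coding sequence with the most differences to Gm10184 (bases 692 to 741). Capitals mark bases that differ from Kpna2.
Kpna2 start: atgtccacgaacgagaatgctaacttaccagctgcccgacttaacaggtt
Gm10184 start: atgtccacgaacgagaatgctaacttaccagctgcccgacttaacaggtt
Gm10259 start: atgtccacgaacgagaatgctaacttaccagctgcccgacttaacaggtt
Kpna2 692 to 741: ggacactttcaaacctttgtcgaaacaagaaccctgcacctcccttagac
Gm10184 692 to 741: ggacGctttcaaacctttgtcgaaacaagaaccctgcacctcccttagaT
Gm10259 692 to 741: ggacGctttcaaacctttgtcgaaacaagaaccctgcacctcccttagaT

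How the reads of shared stretches were treated is not given in the sources used here, so a Kpna2 count may miss reads of Kpna2 or include reads of a copy. The part of the copies in the Kpna2 pattern was not tested. Over all annotated transcripts of each gene, Kpna2 shared 62.6% of its stretches (1852 of 2960) and Kpna7 0.724%, with the pseudogene Gm43563, and Kpna1, Kpna3, Kpna4, Kpna6 and Kpnb1 shared none.

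RefSeq promoters (GRCm38.p6) were given for 4 of the 7 members, Kpna2, Kpna4, Kpna7 and Kpnb1. The 250 bases before the start site are shown for the 3 whose levels the results turn on, all on the minus strand and written 5′ to 3′ along the gene. The RefSeq start of Kpna7 lies inside the longer span that GENCODE gives the gene, so its window precedes the RefSeq start only. Capitals mark E boxes (CANNTG, a palindrome, so the same on both strands), the element bound by basic helix-loop-helix factors, among them the oocyte factor FIGLA.
Kpna2 (chr11:106999526-106999775): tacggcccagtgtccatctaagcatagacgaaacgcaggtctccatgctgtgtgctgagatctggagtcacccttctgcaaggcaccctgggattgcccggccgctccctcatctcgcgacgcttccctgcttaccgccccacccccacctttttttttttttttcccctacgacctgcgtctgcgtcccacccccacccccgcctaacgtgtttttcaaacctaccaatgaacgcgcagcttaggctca
Kpna4 (chr3:69127093-69127342): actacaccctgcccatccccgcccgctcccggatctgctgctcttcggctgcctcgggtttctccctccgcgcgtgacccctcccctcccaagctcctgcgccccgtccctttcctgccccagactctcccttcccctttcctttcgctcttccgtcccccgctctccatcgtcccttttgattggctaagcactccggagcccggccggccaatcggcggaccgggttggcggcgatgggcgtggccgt
Kpna7 (chr5:145009637-145009886): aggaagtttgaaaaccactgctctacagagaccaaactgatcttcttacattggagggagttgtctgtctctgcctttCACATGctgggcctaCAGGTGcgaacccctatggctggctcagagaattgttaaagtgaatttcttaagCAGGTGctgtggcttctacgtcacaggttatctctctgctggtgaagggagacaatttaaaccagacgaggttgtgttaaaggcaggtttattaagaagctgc

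Kpna7 had 3 E boxes in this window, whereas Kpna2, Kpna4 and Kpnb1 had 0, and 66.2% of all 32851 promoters held at least 1. The NOBOX element (TAATTG with its reverse complement CAATTA, and the palindromic form TAATTA) was found in none of the 4 windows and in 11.3% of all promoters. The CCAAT box (on either strand), which can overlap the NOBOX element by some bases, was present in all 4 windows and in 33.8% of all promoters. The GC box (GGGCGG, on either strand) was present in Kpna2, Kpna4 and Kpnb1, not in Kpna7, and in 32.7% of all promoters. The GC content of the windows was 46% in Kpna7, 57.6% in Kpna2, 68.4% in Kpna4 and 70.8% in Kpnb1. These matches describe the letters of the windows only.

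Total counts per pool ranged from 17671193 to 27418358. All 14 oocyte genes of a fixed marker list were detected in every pool, with a summed level of 18563 to 25803 CPM, counts relative to the library size of the pool as scaled by TMM, and the hemoglobin genes Hba-a1 and Hbb-bs were at 0 in all pools. Genes of granulosa cells, the somatic cells around the oocyte, were also present, all 15 of 15 in every pool. Their summed level was 203 to 734 CPM in PND 13, 258 to 664 in PND 16 small, 235 to 268 in PND 16 large and 210 to 229 in PND 40. Single genes of the list differed more than the sum, from 2.34 to 143 CPM for Inha and from 1.02 to 155 for Inhbb, while Nr5a2 (87.9 to 146) and Gata4 (45.2 to 84.9) were more even. At its low end the sum was mostly Nr5a2 and Gata4. They held 87.9 and 61.1 of 203 CPM in PND 13 replicate 2, and 92.7 and 45.2 of 210 CPM in PND 40 replicate 1. Theca and stroma genes summed to 5.49 to 45.9 CPM, and blood, immune and endothelial genes to 53.1 to 65.1 CPM. The latter sum was mostly Pecam1, at 52.0 to 64.6 CPM. No other gene of that list exceeded 1.34 CPM in any pool, and the endothelial gene Cdh5 was at 0 in 8 pools. Across genes, 4 pools were most similar to a pool of another cohort. PND 13 replicate 2 and PND 16 small replicate 1 were each other's nearest pool (r = 0.975), and PND 16 small replicates 2 and 3 were nearest to PND 16 large replicate 3 (r = 0.969 and 0.958).

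Kpna2 was the member whose level differed most between pools. Its raw counts were 420, 4 and 502 in PND 13 replicates 1 to 3, and 5, 2 and 21 in PND 16 small. They were 632, 712 and 644 in PND 16 large, and 499, 598 and 560 in PND 40. The 8 pools with high counts therefore lay at 420 or above and the other 4 at 21 or below, with no pool between. The 4 low pools were the 4 that were most similar to a pool of another cohort.

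In scaled units, Kpna2 was at 26.5 ± 1.36 CPM (SD, n = 3) in PND 16 large and at 0.528 ± 0.626 CPM in PND 16 small, a fitted difference of 5.74 on the log2 scale (SE 1.38), or 53.3-fold. PND 40 pools were at 21.9 ± 1.68 CPM, 5.46 above PND 16 small on the log2 scale (SE 1.38). The pools of PND 16 small overlapped neither cohort. The size of both differences depended on PND 16 small replicate 3, without which they were 7.26 and 6.98. No test is given for them, because they are the differences for which Kpna2 was selected.

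PND 13 stood apart by its spread, at 13.6 ± 11.6 CPM, where replicate 2 lay in the range of the PND 16 small pools and replicates 1 and 3 were at 20.1 and 20.5 CPM. PND 16 small was lower than PND 13 by a log2 fold change of -4.77 (SE 1.37), yet PND 13 replicate 2 lay inside the PND 16 small range. This difference was -6.30 without PND 16 small replicate 3 and -5.38 without PND 13 replicate 2. All 6 competent pools were above all 6 non-competent pools, the highest non-competent pool being at 20.5 CPM and the lowest competent pool at 20.6, whereas 14.7% of all genes tested separated these pools. This narrow separation depended on the scaling. In the authors' log2 values PND 13 replicate 3 (8.90) was above PND 40 replicate 3 (8.88), and in raw counts it was above PND 40 replicate 1 (502 vs. 499). The fitted difference between competent and non-competent oocytes was 1.77 on the log2 scale (SE 1.06). It was 3.21 as a contrast of the 4 cohort means, and 1.49 to 2.48 when single pools were left out.

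The granulosa marker level was not ordered as Kpna2 was. PND 13 replicates 1 and 3, with high Kpna2, had granulosa sums of 659 and 734 CPM, and the competent pools, also high, had 210 to 268. Among the low pools, PND 16 small replicate 2 was at 664 and PND 13 replicate 2 at 203. Inha, a steeper marker picked after its values were seen, was at 2.34 CPM in PND 13 replicate 2 and 4.42 in PND 16 small replicate 1, below the competent pools (11.4 to 20.7), but at 130 and 16.5 in the other two low pools. The plot of Kpna2 and Kpna4 against the granulosa sum shows high and low Kpna2 pools at both ends of its range. The part of granulosa cells in the Kpna2 pattern was not tested.

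**Figure D1:**
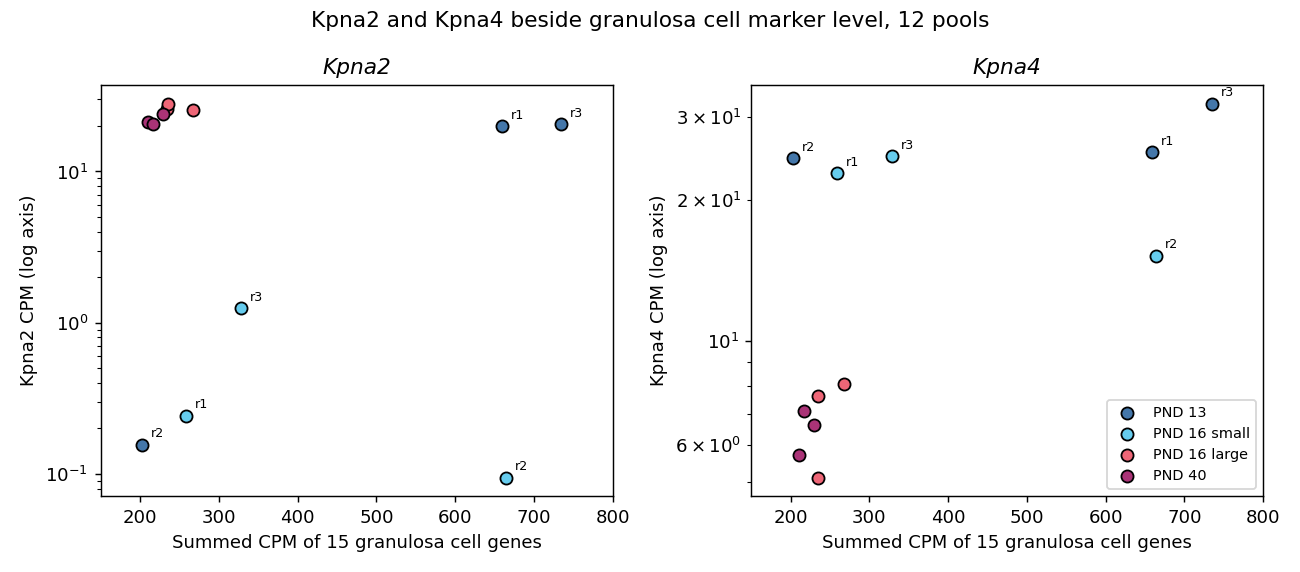
Kpna2 (left) and Kpna4 (right) in CPM on log axes against the summed CPM of 15 granulosa cell genes, 1 point per pool, coloured by cohort, with the replicate number beside PND 13 and PND 16 small pools. Kpna2 splits into 8 high and 4 low pools at both low and high granulosa sums, and Kpna4 is lower in the 6 competent pools than in PND 13 replicate 2, which has the lowest granulosa sum.

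Kpna7 (chr5:144983519-145084030, minus strand) was the importin alpha with the highest level, and its level moved little. Its CPM was 543, 579 and 523 in PND 13, and 608, 568 and 551 in PND 16 small. It was 620, 578 and 598 in PND 16 large, and 554, 548 and 517 in PND 40. Only PND 40 and PND 16 large did not overlap among the 6 pairs of cohorts, with a log2 fold change of -0.15 (SE 0.0649). The other 5 pairs lay between -0.09 and 0.13 on the log2 scale, and competent vs. non-competent oocytes differed by 0.02 (SE 0.0587). With scaling by total counts alone, PND 16 small vs. PND 13 turned from 0.07 to -0.03. The annotated span of Kpna7 also contains Arpc1a on the opposite strand and Gm4871 on the same strand.

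Kpna4 (chr3:69067149-69127113, minus strand), an importin alpha of most tissues, was lower in competent oocytes. Its counts were 530, 629 and 784 in PND 13 and 469, 321 and 418 in PND 16 small. They were 125, 193 and 203 in PND 16 large and 133, 166 and 193 in PND 40, so the competent pools lay below all non-competent pools. In CPM, Kpna4 was at 6.70 ± 1.13 in the 6 competent and 24.1 ± 5.42 in the 6 non-competent pools, a log2 fold change of -1.85 (SE 0.168, adjusted p = 1.44e-05).

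Between single cohorts, the log2 fold change of Kpna4 was -1.98 in PND 16 large vs. PND 13 (SE 0.217, adjusted p = 0.000216) and -2.08 in PND 40 vs. PND 13 (SE 0.218, adjusted p = 4.17e-05). Neither PND 16 small vs. PND 13 (-0.39, adjusted p = 0.333) nor PND 40 vs. PND 16 large (-0.10, adjusted p = 0.841) passed the test. The step within PND 16, from small to large, was -1.59 on the log2 scale and was not tested. The granulosa sum was also lower in competent pools, and PND 13 replicate 2, whose granulosa sum of 203 CPM was the lowest of all pools, held 629 Kpna4 counts. The part of granulosa cells in the Kpna4 change was not tested.

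Kpna1 (chr16:35978750-36037131, plus strand), another broadly expressed importin alpha, was also lower in competent oocytes, at a low level throughout. It had 134, 167 and 192 counts in PND 13 and 146, 198 and 137 in PND 16 small. It had 80, 96 and 97 in PND 16 large and 56, 87 and 72 in PND 40. No competent pool reached the lowest non-competent pool. The log2 fold change between competent (3.24 ± 0.599 CPM) and non-competent (7.57 ± 1.13 CPM) oocytes was -1.22 (SE 0.173, adjusted p = 0.000198). Against PND 13, its log2 fold change was -0.93 in PND 16 large (adjusted p = 0.00814) and -1.29 in PND 40 (adjusted p = 0.000801). PND 16 small vs. PND 13 (0.24, adjusted p = 0.584) and PND 40 vs. PND 16 large (-0.36, adjusted p = 0.375) did not pass the test.

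Kpna3 (chr14:61365211-61439874, minus strand), close to Kpna4 in sequence family, went the other way by a smaller amount. Its CPM was 352, 362 and 327 in PND 13, and 362, 361 and 391 in PND 16 small. It was 410, 396 and 383 in PND 16 large, and 466, 470 and 477 in PND 40, where all 3 pools were above every pool of the other cohorts. PND 40 was higher than PND 13 by 0.44 on the log2 scale (SE 0.0621, adjusted p = 0.000209) and higher than PND 16 large by 0.25 (SE 0.062, adjusted p = 0.0303). PND 16 large was higher than PND 13 by 0.19 (SE 0.062, adjusted p = 0.0372). All these differences were under the 1.5-fold criterion, and the last 2 reached an adjusted p of 0.137 and 0.21 among the alternative settings. Competent oocytes were higher than non-competent ones by 0.27 (SE 0.0689, adjusted p = 0.00835), although the pools overlapped.

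Kpna6 (chr4:129643980-129672767, minus strand), an importin alpha close to Kpna1, was at 194 to 216 CPM in PND 13 and 223 to 277 CPM in PND 16 small. It was at 250 to 262 CPM in PND 16 large and 222 to 225 CPM in PND 40. It differed in PND 16 large vs. PND 13 by 0.30 on the log2 scale (SE 0.0807, adjusted p = 0.0163), under 1.5-fold, and this p ranged up to 0.0754 among the alternatives. PND 16 small vs. PND 13 was of similar size, at 0.31 (SE 0.0808, adjusted p = 0.0675), with no overlap of pools. That p ranged from 0.00403 to 0.394 among the alternatives. PND 16 large vs. PND 16 small was at -0.02 and was not tested. Competent and non-competent oocytes differed by 0.04 (SE 0.0899, adjusted p = 0.778).

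Kpnb1 (chr11:97159714-97187881, minus strand), the shared beta partner, was at 504 to 548 CPM in PND 13, 573 to 607 in PND 16 small, 559 to 653 in PND 16 large and 518 to 534 in PND 40. PND 16 large was above PND 13 by 0.20 on the log2 scale (SE 0.0668, adjusted p = 0.0409, up to 0.241 among the alternatives). Competent and non-competent oocytes differed by 0.02 (SE 0.0698, adjusted p = 0.835). The level of the partner thus lay within 527 to 608 CPM in cohort means, while Kpna2 ranged from 0.528 to 26.5 CPM.

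**Figure D2:**
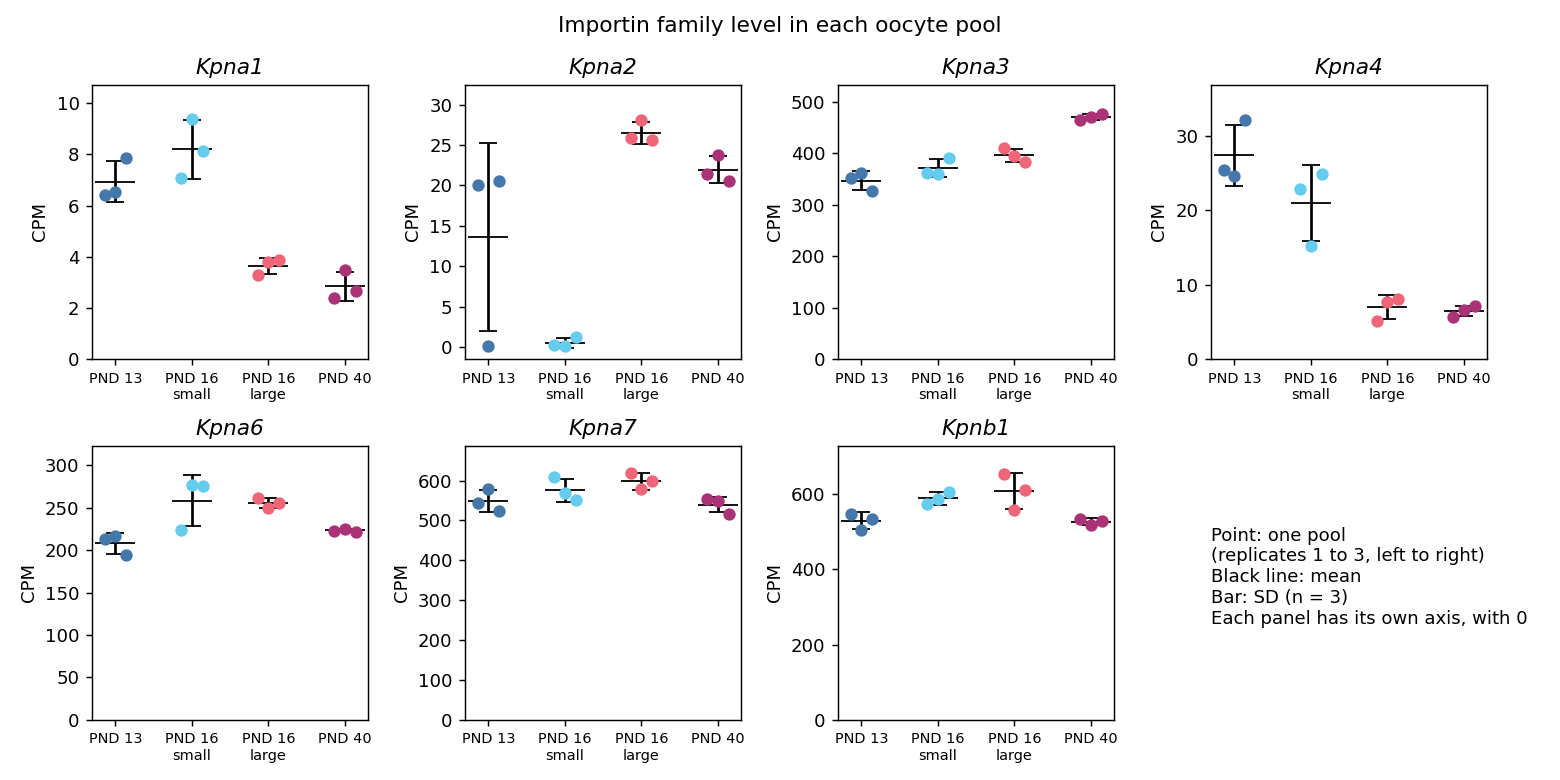
CPM of the 7 genes in each of the 12 pools, with a separate linear axis that includes 0 for each gene. Points are pools, the horizontal line is the cohort mean and the bar is the SD (n = 3). Kpna2 is low in all PND 16 small pools and in PND 13 replicate 2, Kpna1 and Kpna4 are lower in PND 16 large and PND 40, and Kpna7 stays between 517 and 620 CPM.

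Among the 5 members chosen by name, a gene counts as called when it meets both criteria of the study, 0.05 as the highest adjusted p and 1.5-fold as the smallest change. In competent vs. non-competent oocytes 2 of 5 (Kpna1 and Kpna4) were called lower and 0 higher, against 11.2% lower and 3.78% higher among all 13943 genes. The same pair was called lower in PND 16 large vs. PND 13 (9.8% of all genes lower, 3.52% higher) and in PND 40 vs. PND 13 (12.6% lower, 6.31% higher). With DESeq2 the counts were the same, 2 lower and 0 higher in each of these 3 comparisons. At an unadjusted p under 0.05, 1 of the 5 was higher in competent oocytes, 3 in PND 16 large vs. PND 13 and 1 in PND 40 vs. PND 13.

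Both edgeR and DESeq2 called 0 of 5 in PND 16 small vs. PND 13, where 0.179% of all genes were called higher and 0.194% lower, and 2 of 5 had an unadjusted p under 0.05. Both called 0 of 5 in PND 40 vs. PND 16 large, where 2.34% were called higher and 1.32% lower, and 3 of 5 had an unadjusted p under 0.05. The comparisons share cohorts, so their results are not independent of each other. In the 2 comparisons for which Kpna2 was selected no member was tested, and all genes gave 1.43% higher and 4.76% lower for PND 16 large vs. PND 16 small and 6.89% higher and 10.3% lower for PND 40 vs. PND 16 small.

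**Figure D3:**
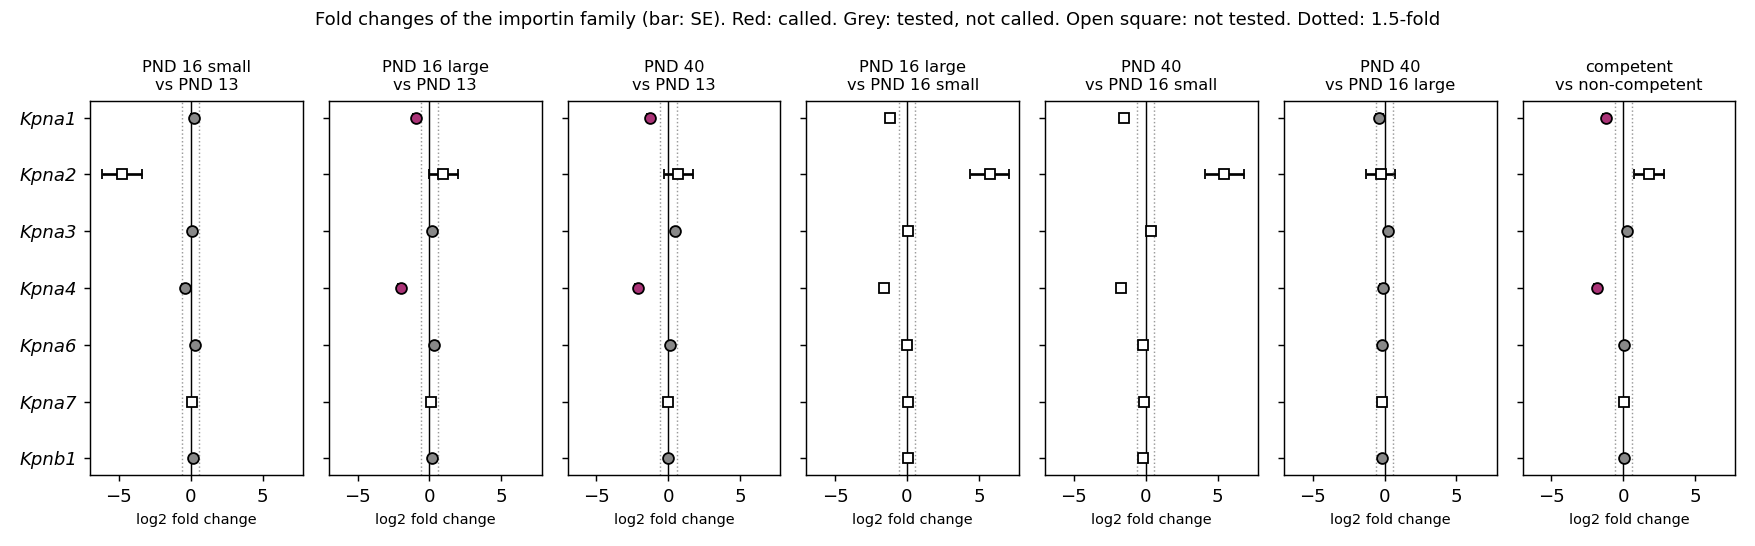
Log2 fold changes with SE of the 7 genes in the 6 pairwise comparisons and in competent vs. non-competent oocytes. Circles were tested (red, called; grey, not called), open squares were not tested, and dotted lines mark 1.5-fold. Kpna2 spans -4.77 to 5.74, Kpna1 and Kpna4 are called lower in 3 comparisons, and the other members stay within 1.5-fold.

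Levels were compared between genes as CPM per kilobase of annotated exons. Kpna7 was highest in every pool, with cohort means of 172 to 191 CPM per kb. Kpna3 (80.7 to 110) and Kpnb1 (80.0 to 92.3) followed, and their pools overlapped in PND 13, PND 16 small and PND 16 large. In PND 40, Kpna3 (108 to 111) lay above Kpnb1 (78.6 to 81.0). Kpna6 came next at 30.9 to 38.4 CPM per kb in cohort means, apart from the neighbours above and below it.

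The 3 remaining genes were far lower and changed places between cohorts. In PND 16 large, Kpna2 was at 9.23 ± 0.473 CPM per kb, above Kpna4 (0.776 ± 0.179) and Kpna1 (0.429 ± 0.0378). In PND 16 small, Kpna4 was at 2.34 ± 0.565 and Kpna1 at 0.967 ± 0.135, and Kpna2 was at 0.184 ± 0.218, below both in all 3 pools. In PND 13, Kpna2 lay above them in 2 pools and below them in replicate 2.

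As a share of the summed importin alpha level per kb, Kpna7 made up 59.3% ± 1.23 in PND 13, 58.9% ± 2.62 in PND 16 small, 57.6% ± 0.718 in PND 16 large and 53.2% ± 1.08 in PND 40. Kpna3 made up 27.3% to 27.8% in the first 3 of these cohorts and 33.9% ± 0.986 in PND 40. Kpna2 made up 2.79% ± 0.199 in PND 16 large and 2.36% ± 0.153 in PND 40, and 0.0589% ± 0.0699 in PND 16 small. These Kpna2 shares divide its counts by all its exon bases, although most of its transcript is shared with copies, so its share and its place in the order per kb may be too low or too high. The summed level was 295 ± 10.7 CPM per kb in PND 13, 312 ± 2.93 in PND 16 small, 332 ± 9.12 in PND 16 large and 324 ± 5.65 in PND 40.

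**Figure D4:**
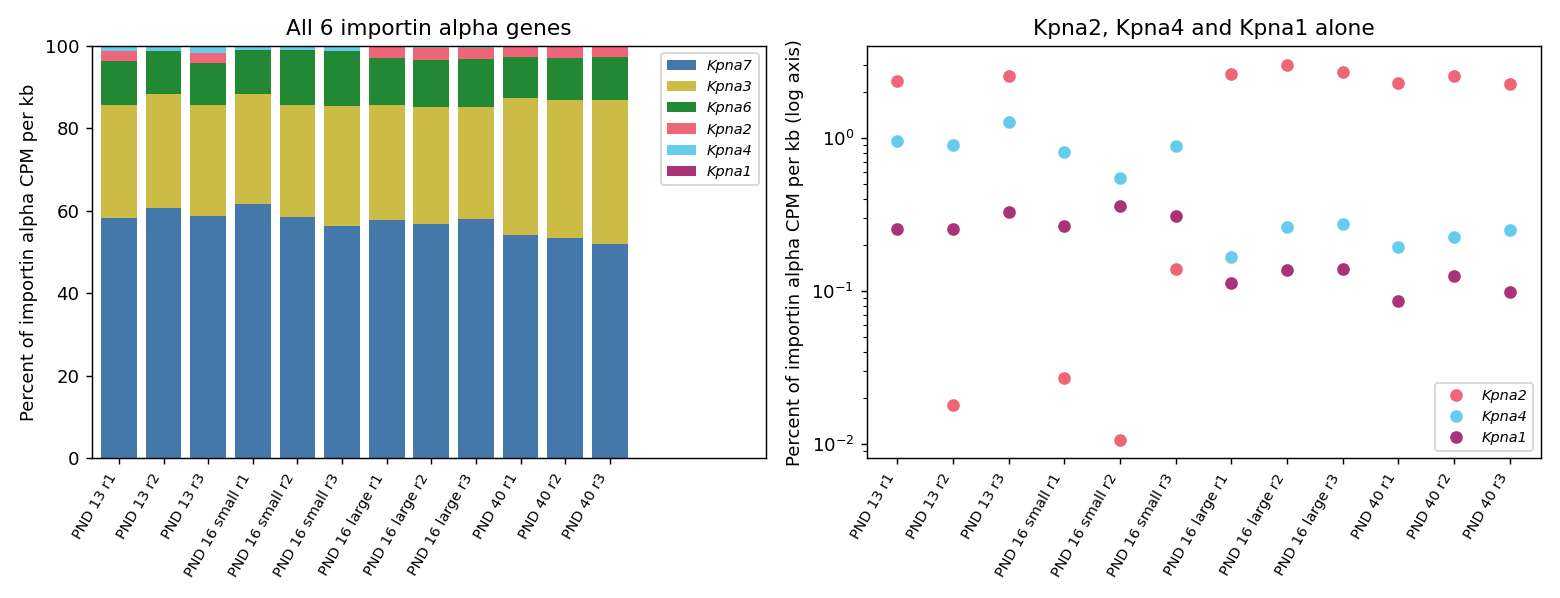
Share of each importin alpha gene in the summed CPM per kb of the 6, by pool (r, replicate), as stacked bars (left), and the shares of Kpna2, Kpna4 and Kpna1 on a log axis (right). Kpna7 holds 52.0% to 61.6% in every pool, and Kpna2 lies above Kpna4 and Kpna1 in the 6 competent pools and in PND 13 replicates 1 and 3.

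The genes whose log2 CPM over the 12 pools was most like that of Kpna2, by Pearson's r, were Nptx2 (0.935), BC021767 (0.911), Rims4 (0.906), Ccbe1 (0.904) and Tuba3a (0.902). Tuba3a, an alpha tubulin, was at 63.3 CPM in PND 13, 32.5 in PND 16 small, 101 in PND 16 large and 105 in PND 40. Rims4 was at 0 in all PND 16 small pools and reached at most 1.19 CPM in any pool. Those most like Kpna7 were Rpa1 (0.927), Wdtc1 (0.926), Phf14 (0.925), C330007P06Rik (0.913) and Fastkd3 (0.909). The 12 points share cohorts, libraries and scaling. Ranked by Spearman's rho, 0 of these 5 genes for Kpna2 and 1 of 5 for Kpna7 were again among the nearest 5.

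Of 32 other nuclear transport genes, all of them tested, 3 were called lower and 0 higher in competent oocytes, against 11.2% and 3.78% of all genes, and DESeq2 gave the same counts. The share called lower was thus near that of all genes. Their median log2 fold change was -0.06, where that of all genes was -0.00458. Xpot, the exporter of tRNA, fell by 2.01 on the log2 scale (SE 0.263, adjusted p = 0.000114), from 17.7 ± 3.50 to 4.39 ± 1.69 CPM. Tnpo3, the import receptor of splicing factors, fell by 1.33 (SE 0.112, adjusted p = 1.2e-05), from 31.3 ± 4.04 to 12.4 ± 1.43 CPM. Ran itself fell by 0.99 (SE 0.145, adjusted p = 0.000261), from 21.5 ± 3.25 to 10.9 ± 2.14 CPM. In these 3 genes, as in 14.7% of all genes, no competent pool overlapped a non-competent one. This also held for Ipo7 and Ranbp2, lower in competent oocytes, and for Ipo8, Ipo13, Tnpo1 and Snupn, at higher values in them. Copies share 14.1% of the 50-base stretches of Ran, and Gm7389 alone shares 13.7% of those of Xpot, so counts of these 2 genes are less certain. The granulosa sum was lower in competent pools as well, and its part in these changes was not tested.

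By the adjusted p alone, 8 of the 32 were higher and 9 lower in competent oocytes, against 14.2% and 16.5% of all genes. Of 11 import receptors, 3 were higher (Ipo8, Tnpo1 and Snupn, the receptor of snRNPs), 3 lower (Tnpo3, Ipo7 and Ipo11) and 5 did not pass. Tnpo1 did not pass in PND 16 large or PND 40 vs. PND 16 small (adjusted p = 0.579 and 0.115). Ipo11 did not pass in PND 16 large vs. PND 13 (0.338). Neither Ipo11 nor Ipo7 passed in PND 16 large vs. PND 16 small (0.48 and 0.0725). Of 7 export receptors, 3 were lower (Xpot, Xpo1, the main protein exporter, and Xpo5, which exports microRNA precursors) and 4 did not pass. Cse1l, which recycles importin alpha, was among these 4 at -0.05 (SE 0.062, adjusted p = 0.599). Competent and non-competent pools overlapped in Xpo1 and Xpo5. Xpo1 was at 286 CPM in PND 13, 348 in PND 16 small, 290 in PND 16 large and 214 in PND 40. Its PND 16 large vs. PND 13 difference did not pass (0.02, adjusted p = 0.876). Xpo5 in PND 40 vs. PND 16 small did not pass either (-0.06, adjusted p = 0.658).

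Of 8 genes of the Ran cycle, Ranbp3 was higher, Ran and Ranbp2 were lower and 5 did not pass, among them Rcc1, the exchange factor that charges Ran, at 0.18 (adjusted p = 0.2). Both nucleoporins that help to release importin alpha from its cargo were higher, Nup50 by 0.32 (SE 0.0758, adjusted p = 0.0052) and Nup153 by 0.32 (SE 0.0974, adjusted p = 0.0236). Of 4 spindle factors held by importins, Tpx2 (0.25, adjusted p = 0.0356) and Nusap1 (0.32, adjusted p = 0.0345) were higher. Numa1 was lower (-0.25, adjusted p = 0.0213) and Dlgap5 did not pass (0.22, adjusted p = 0.148). In these 4 genes and both nucleoporins, competent and non-competent pools overlapped. Numa1 passed in PND 16 large vs. PND 13 and vs. PND 16 small (adjusted p = 0.0328 and 0.0239). In PND 40 it did not pass against either (0.299 and 0.123). Tpx2, Nusap1 and Nup153 passed in PND 16 large vs. PND 13 (adjusted p = 0.00501, 0.00973 and 0.0065). They did not pass in PND 16 large vs. PND 16 small (0.514, 0.541 and 0.6). Nor did they in PND 40 vs. PND 16 small (0.344, 0.287 and 0.116), where Nup50 did (0.000785). Nup50 also passed in PND 40 vs. PND 13 (0.00101). It did not pass in PND 16 large vs. PND 13 (0.127) or vs. PND 16 small (0.112).

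**Figure D5:**
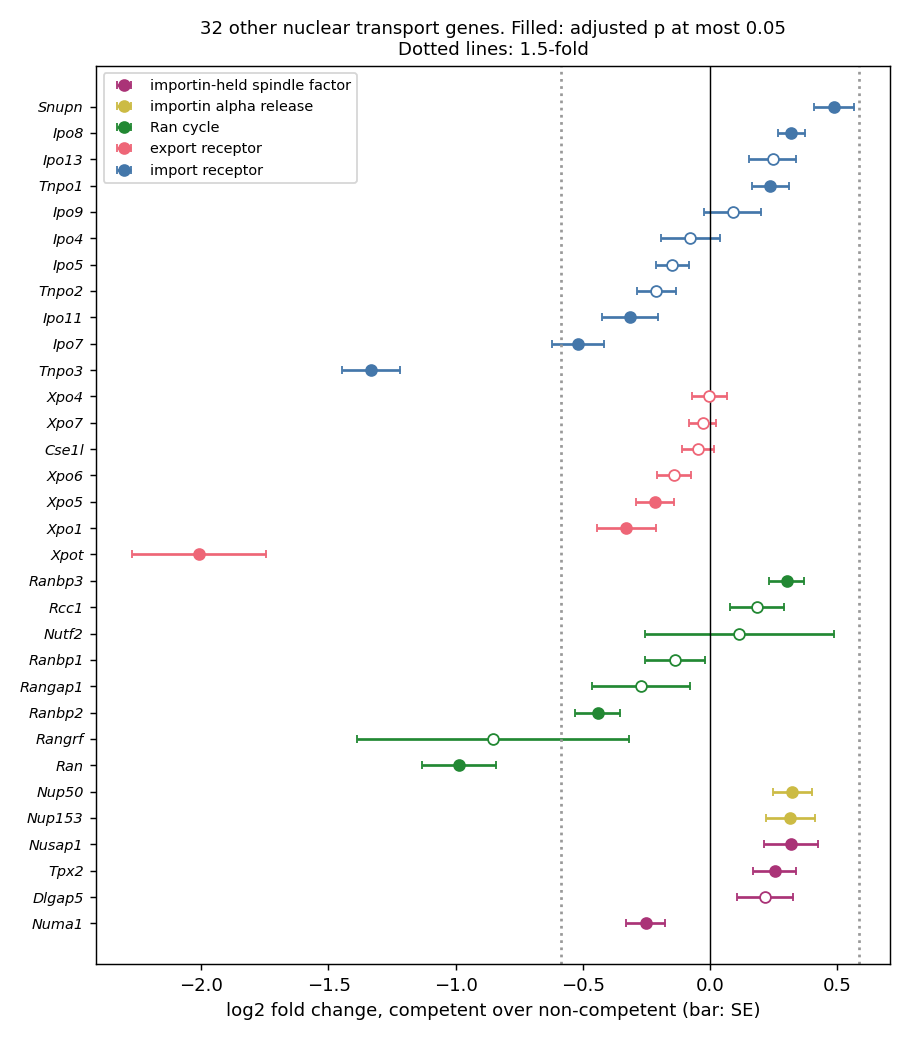
Log2 fold change with SE of 32 other nuclear transport genes in competent vs. non-competent oocytes (6 pools each), coloured by role. Filled points have an adjusted p of at most 0.05 and dotted lines mark 1.5-fold. Xpot, Tnpo3 and Ran are past the line on the lower side with filled points, and no gene is past it on the higher side.

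In the single comparisons, the transport genes called lower numbered 3 in PND 16 large vs. PND 13 (9.8% of all genes), 4 in PND 40 vs. PND 13 (12.6%), 3 in PND 16 large vs. PND 16 small (4.76%) and 5 in PND 40 vs. PND 16 small (10.3%). In each of these 4, edgeR and DESeq2 both called 0 higher, and 11, 10, 4 and 7 of the 32 were higher at an unadjusted p under 0.05. Neither tool called any of the 32 in PND 16 small vs. PND 13 or in PND 40 vs. PND 16 large, where 8 and 7 had an unadjusted p under 0.05. In these 2 comparisons few genes of any kind were called, 0.179% higher and 0.194% lower in the former and 2.34% higher and 1.32% lower in the latter.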

How the data were processed

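Oocyte pools were grouped by the cohort in the sample labels (12 samples, 3 per cohort). The authors deposited raw counts per gene, not normalized, and log2 values, which were log2(count divided by a size factor of the pool, plus 1), as checked on the values. The paper gives ribosomal RNA depletion, directional libraries, 50-base HiSeq reads and the Rosalind platform. The submitters' processing notes name STAR, HTSeq, DESeq2 and mm10, without roles. Counting settings are not given in the sources used here. The log2 values served as an alternative only.

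Counts were tested with edgeR 4.0.16 in R 4.3.3 (filterByExpr with a minimum count of 10, TMM factors of 0.955 to 1.07, robust quasi-likelihood, Benjamini-Hochberg adjustment over 13943 genes, two-sided). Pairwise comparisons came from 1 model of the 4 cohorts, and competence (6 vs. 6 pools) from a 2-group model. SE is the absolute log2 fold change over the root of F. Total counts of 17671193 to 27418358 set the counting error, and tests rest on the spread between pools. Nothing in the labels says whether pools came from separate animals, so p-values measure the spread between these pools. The paper states that 3 mice per condition gave the oocytes, and it calls the 3 pools independent. It does not say whether each pool came from a single mouse. Within a cohort, pools differed by more than sampling noise (chi-square per gene 9.41 to 51.8). The log2 CPM used for likeness had a prior count of 2. The functions were tested on simulated data.

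Gene lengths, spans and 50-base stretches came from GENCODE M21 (GRCm38), promoters from RefSeq, read with Python and pandas. The members and lists were chosen with earlier results of these data known. Named transport genes were, by rule, the 3 called genes that changed most, per direction, for competence and for PND 40 vs. PND 16 large, and likeness named 5 genes each. The other transport genes are named to complete each role, and Tuba3a was singled out after its values were seen. Alternatives were DESeq2 1.42.0, RLE factors, total counts, no filter or a minimum count of 30, only the cohorts compared, no fold criterion, leaving out each pool, and the replicate number as a block. Exon lengths of basic transcripts were an alternative chosen after seeing the data. Protein sequences were not used here.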

Additional observations from a re-analysis of the deposited data

How the results depend on the processing

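Every call of Kpna1 and Kpna4 kept its direction and its side of the criteria under all alternatives run. Without the 1.5-fold criterion the members called numbered 5 for PND 16 large vs. PND 13 and 1 for PND 40 vs. PND 16 large. The transport genes called then numbered 1 (PND 16 small), 15 (PND 16 large) and 18 (PND 40) against PND 13, 8 (PND 16 large) and 13 (PND 40) against PND 16 small, 2 for PND 40 against PND 16 large, and 17 in competent vs. non-competent oocytes, since small changes then count. Leaving out single pools gave 3 to 7 transport genes in PND 40 vs. PND 13, with 7 without PND 13 replicate 2, and the cause was not tested. Of these, 2 were called higher without PND 13 replicate 2. Without PND 13 replicate 1, PND 40 replicate 2 or PND 40 replicate 3, 1 was called higher. In PND 40 vs. PND 16 small, 1 was called higher with total counts or without PND 16 small replicate 2. Of the nearest genes by Pearson's r, Spearman's rho kept 0 of 5 for Kpna2 and 1 of 5 for Kpna7, and the authors' log2 values kept 5 and 5. With exons of basic transcripts the Kpna7 share was 61.8% in PND 13, 60.1% in PND 16 large and 56.0% in PND 40. Scaling by total counts moved the median of all genes to -0.124 (log2) for PND 16 small and -0.132 for PND 16 large, each against PND 13. Kpna7 was then at -0.03, 0.03 and -0.09 (log2) for PND 16 small, for PND 16 large and for PND 40, each against PND 13.

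Same-numbered pools did not deviate together (18 pairs, correlations -0.442 to 0.0753, none above 0.1). With n = 3 pools per cohort, this cannot settle whether the replicate numbers pair the pools. With the replicate block, 2 members and 3 transport genes were called in competent vs. non-competent oocytes and the Kpna2 difference was 2.37, and the block moved no count of calls by over 1.5 times. Low counts limit Kpna2, of which 4 of 12 pools held 2 to 21 counts, and Rangrf, which held 3 to 16 in every pool, and these carry counting error of PCR reads on top of the spread between pools. The total count was 24762189 in PND 13 replicate 2, with 4 Kpna2 counts, and 20153626 in replicate 1, with 420.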
